A study of Mus musculus with 16 samples.

Results

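The genes described here are 7 components of the adrenergic receptor system of the mouse heart. They are 4 receptor genes (Adrb1, Adrb3, Adra1a and Adra1b), the receptor kinase gene Grk5 and the arrestin genes Arrb1 and Arrb2. They were taken by symbol from a table of 35682 genes, and all 7 were found. RNA came from isolated adult ventricular myocytes of 16 mice, 8 wild-type (WT) littermates and 8 mice of the line B3AR-Tg, whose name refers to the beta-3 adrenergic receptor. All 16 animals, controls included, were at 9 weeks after TAC (transverse aortic constriction, in which the aorta is tightened by surgery and the left ventricle has to work against a higher pressure). The comparison is of genotype under load and has no unloaded group. Hearts were digested by Langendorff perfusion and the cells were plated for 1 hour before RNA was extracted. The promoter and species of the transgene, and the animals' age and strain, were not given in the sources used here.

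Noradrenaline and adrenaline act on heart muscle through receptors that couple to different G proteins. Beta-1 receptors couple to Gs, raise cyclic AMP and increase the force and rate of contraction, whereas beta-3 receptors can couple to Gi and to nitric oxide signalling and oppose that drive. Alpha-1 receptors couple to Gq and phospholipase C and have been linked to growth and survival of myocytes. Receptor kinases phosphorylate activated receptors, and arrestins then bind them, uncouple them from G proteins and carry them into the cell.

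Library totals ranged from 6926821 to 11584656 counts in WT and from 5985335 to 14365864 in B3AR-Tg. Over 56 pairs of libraries of the same genotype the chi-square per gene was at least 5.82, more than counting noise alone would give in any pair, and each library was kept as a separate animal. Adgrb3, an adhesion receptor gene picked because it separated the genotypes in earlier results of these same data, and so no independent check of the labels, held 0 to 3 counts in WT libraries and 247 to 723 in B3AR-Tg libraries. All 10 markers of cardiac myocytes were tested. Of these, 7 had log2 fold changes above 0 and 1 (Ryr2) was called higher in B3AR-Tg. Together the 10 took 40350 to 50050 CPM (library-scaled counts, with TMM factors) in WT and 45800 to 54760 in B3AR-Tg. Markers of other cells were lower in level, and some of them differed with genotype. The 8 fibroblast markers summed to 45.9 to 189.8 CPM in WT and 12.0 to 65.1 in B3AR-Tg, and 5 of the 7 tested were lower. The 8 endothelial markers summed to 126.7 to 172.9 and 57.7 to 222.9 CPM, with 2 of 8 lower, and the 8 leukocyte markers to 4.39 to 15.8 and 0.883 to 6.93 CPM, with 0 of the 2 tested called. The 8 mural cell markers summed to 347.1 to 544.6 CPM in WT and 492.7 to 650.9 in B3AR-Tg, with 1 of the 7 tested higher (Abcc9), although 2 of the 7 had log2 fold changes above 0 and their median was −0.34. The 7 nerve and Schwann cell markers summed to 1.61 to 5.81 CPM in WT and 1.88 to 6.46 in B3AR-Tg, with 0 of the 1 tested called. In bulk RNA, fewer cells of a type and less RNA per cell cannot be told apart.

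Of the 7 genes, Adra1b alone passed the test between genotypes. Adrb3 and Arrb2 had too few counts for the test across genes and are given by their counts, so 5 were tested and 1 of the 5 was called at an edgeR adjusted p under 0.05. Over all 10945 tested genes the share called was 4.91%, with 2.03% higher and 2.88% lower in B3AR-Tg (222 and 315 genes). That split depended on scaling, with 88 higher and 852 lower when libraries were scaled to myocyte markers, and 346 higher and 165 lower with library size only. The number of genes called fell from 537 to 275 without WT replicate 4, to 274 without B3AR-Tg replicate 5 and to 341 without B3AR-Tg replicate 8. All 5 tested genes had log2 fold changes above 0, with a median of 0.24 against 0.01 for all tested genes, but 4 of the 5 did not pass. The shared sign depended on the model. With scaling to myocyte markers Adrb1 (−0.090) and Arrb1 (−0.088) were below 0, and Adra1a (0.10), Adra1b (0.80) and Grk5 (0.32) above. With the load covariate Adrb1 (−0.26) and Adra1a (−0.22) were below 0, and Adra1b (0.37), Grk5 (0.85) and Arrb1 (0.53) above. The plot of levels in every animal shows each of the 7 genes.

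**Figure D1:**
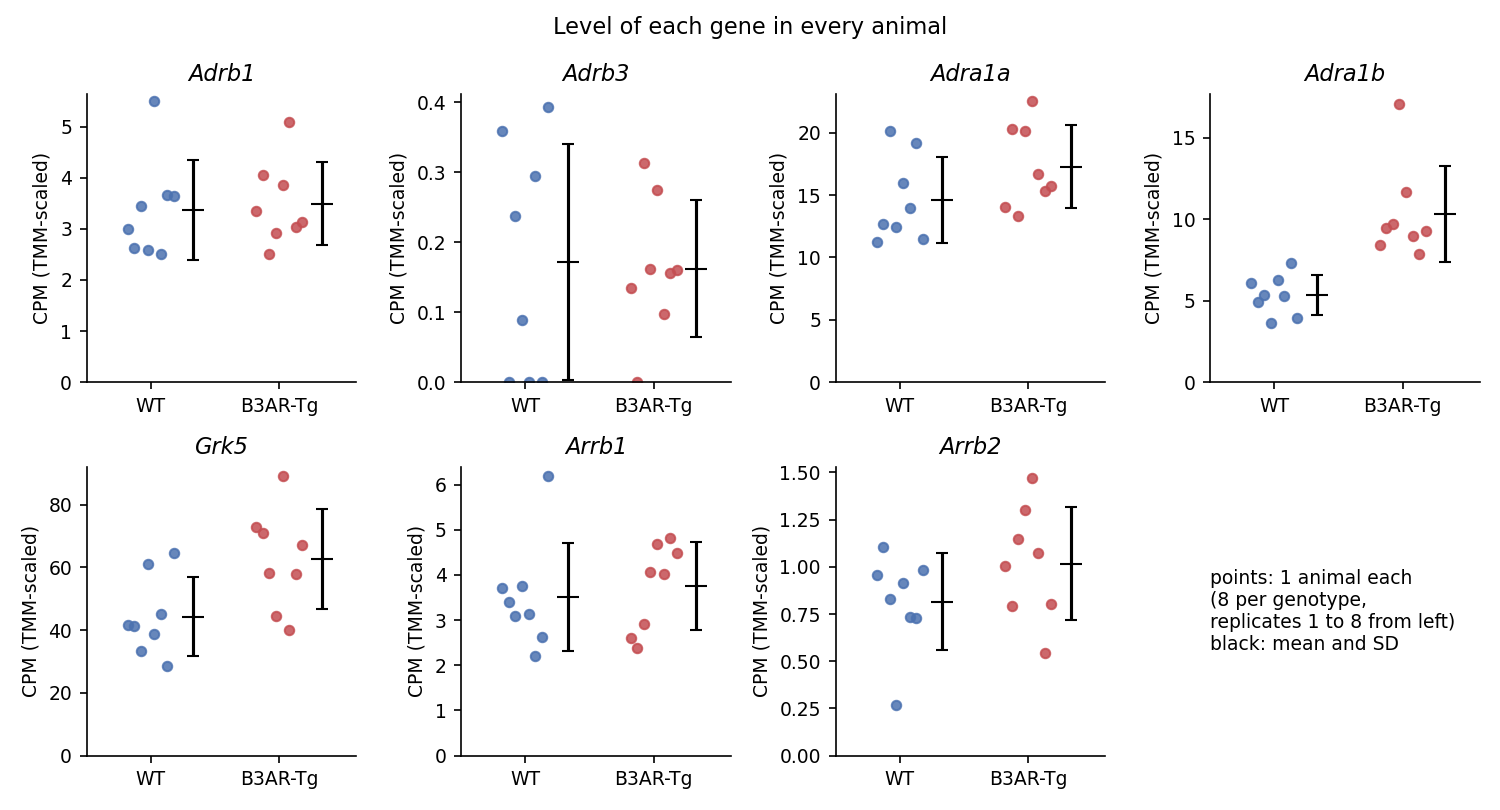
Level of each gene in CPM (TMM-scaled, vertical axes from 0) in the 8 WT animals (blue) and 8 B3AR-Tg animals (red), with black bars for the mean and SD. The Adra1b points of the genotypes do not overlap, while those of the other 6 genes do.

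Adra1b encodes the alpha-1B adrenergic receptor, 1 of the 2 alpha-1 receptors tested in these myocytes. The gene (ENSMUSG00000050541) spans 43774606 to 43901210 of chromosome 11, minus strand (GENCODE M21 on GRCm38, as for all positions below; the count table itself holds no positions). It held 36 to 58 counts in WT libraries and 92 to 127 in B3AR-Tg libraries. The lowest, median and highest WT animals were at 3.66, 5.32 and 7.32 CPM, and the lowest, median and highest B3AR-Tg animals at 7.86, 9.38 and 17.1 CPM. All 8 B3AR-Tg animals therefore lay above all 8 WT animals, a separation seen in this direction for 0.201% of tested genes. The mean rose from 5.36 ± 1.22 to 10.3 ± 2.94 CPM (SD, n = 8 each). The log2 fold change was 0.94, SE 0.17, with a 95% interval of 0.59 to 1.30 (edgeR adjusted p = 0.00485). It was rank 41 of all tested genes by p-value. Leaving out any 1 animal gave log2 fold changes of 0.81 to 1.02. The call was lost with either of 2 covariates. With the score of fibroblast and endothelial markers the log2 fold change was 1.02 (edgeR adjusted p = 0.193), and with the score of load markers it was 0.37 (adjusted p = 0.724), while adjusted p-values over the 12 alternatives to the main model ran from 2.72e-05 to 0.724. Both scores differed with genotype, the former at 3.58 ± 0.34 in WT and 2.58 ± 0.54 in B3AR-Tg (mean log2 CPM ± SD, n = 8 each).

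RefSeq lists 2 starts for Adra1b, 64748 bases apart, and the 250 bases before each are shown because this is the gene whose level differed. Counts per gene do not tell which start was used. The windows, in GRCm38.p6 and on the minus strand, are chr11:43901238-43901487 for start 1 and chr11:43836490-43836739 for start 2. They are written 5′ to 3′ along the gene, with motif matches in capitals.
Adra1b start 1: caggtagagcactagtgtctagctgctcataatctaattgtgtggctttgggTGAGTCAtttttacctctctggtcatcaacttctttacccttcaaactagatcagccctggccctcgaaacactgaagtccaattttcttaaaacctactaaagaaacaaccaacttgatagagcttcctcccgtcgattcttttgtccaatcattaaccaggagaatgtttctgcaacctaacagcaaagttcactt
Adra1b start 2: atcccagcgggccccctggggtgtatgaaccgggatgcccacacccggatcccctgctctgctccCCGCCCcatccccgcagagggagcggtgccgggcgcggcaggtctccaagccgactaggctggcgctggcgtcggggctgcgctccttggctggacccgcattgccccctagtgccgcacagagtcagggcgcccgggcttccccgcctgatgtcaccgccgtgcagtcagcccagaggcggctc

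The windows differed in composition. Start 1 had 41.6% G and C and 3 CpG pairs, and start 2 had 72.8% and 22 CpG pairs, against medians of 52.4% and 6 over 32851 windows of the same length. Motifs of 4 kinds, chosen after the sequences had been seen, were searched on both strands. The AP-1 site TGAGTCA was found at start 1, 198 to 192 bases before the start, and 4.46% of all windows hold it. The GC box GGGCGG was found at start 2 on the opposite strand, 185 to 180 bases before the start, and 32.7% of all windows hold it. The cAMP response element TGACGTCA (1.55% of windows) and the TATA box TATAAA (12.4%) were in neither window. A form of the cAMP response element with a single base changed, TGATGTCA, was dropped before the search. Its letters are present in the start 2 window, where they are not in capitals. The share of all windows that hold it was not counted. The searched motifs do not overlap each other in these windows.

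Ratios of counts within a library do not depend on how libraries are scaled, and they were compared for 3 pairs by exact two-sided permutation, with p-values adjusted over the 3 (12870 ways to divide 16 animals evenly). Adra1b was set against Adra1a, its alpha-1 relative. WT animals had a log2 ratio of −1.44 ± 0.31 and B3AR-Tg animals one of −0.76 ± 0.29, which corresponds to 0.368 and 0.590 Adra1b counts per Adra1a count (SD, n = 8 each). The difference was 0.68 (exact permutation adjusted p = 0.00163), and 8 of 8 B3AR-Tg animals lay above the WT median and 4 of 8 above every WT animal. Against Adrb1, the log2 ratio of Adra1b went from 0.67 ± 0.38 (WT) to 1.54 ± 0.51 (B3AR-Tg), a difference of 0.87 (exact permutation adjusted p = 0.00163) with 7 of 8 B3AR-Tg animals above every WT animal. Adra1b was thus higher in B3AR-Tg relative to both of these receptor genes. Both ratios use the Adra1b counts of the test between genotypes, so they are independent neither of that call nor of each other. For Arrb1 to Arrb2 the WT log2 ratio of 2.06 ± 0.71 and the B3AR-Tg log2 ratio of 1.85 ± 0.60 had a difference of −0.21 that did not pass (exact permutation adjusted p = 0.534).

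**Figure D2:**
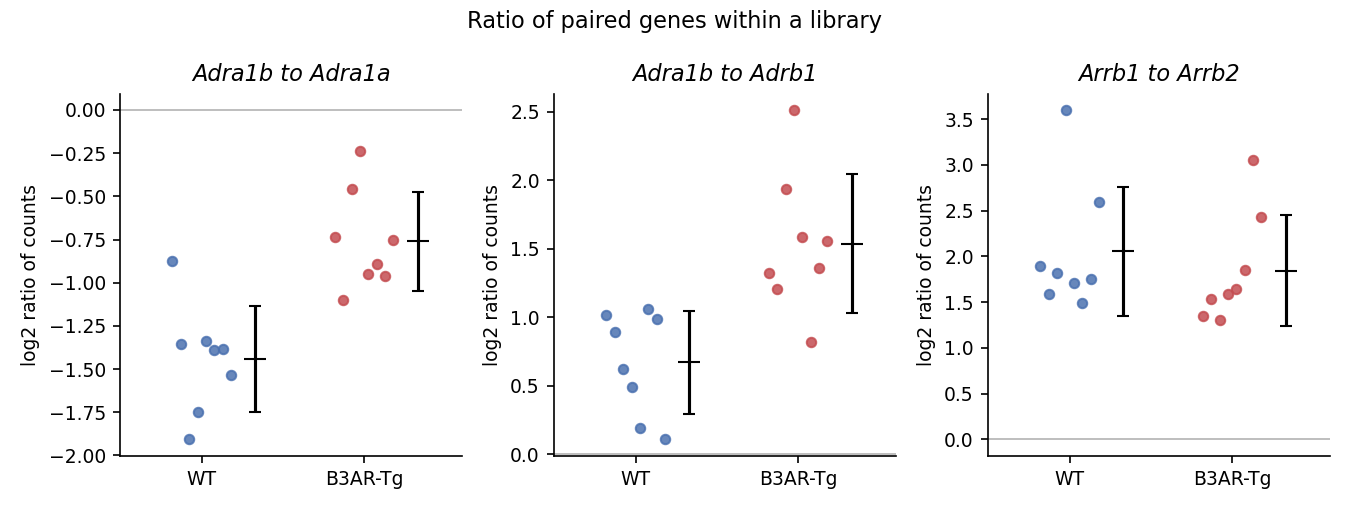
Log2 ratio of the counts of 2 genes in the same library (0.5 added to each count) in 8 WT (blue) and 8 B3AR-Tg animals (red), with black bars for the mean and SD. The mean ratio of Adra1b to Adra1a was −1.44 in WT and −0.76 in B3AR-Tg, and the Arrb1 to Arrb2 ratios overlapped throughout.

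Adra1a encodes the alpha-1A receptor (ENSMUSG00000045875, chromosome 14, 66635251 to 66771168, plus strand). Its lowest, median and highest levels were 11.3, 13.3 and 20.2 CPM in WT and 13.4, 16.2 and 22.6 CPM in B3AR-Tg. The groups overlapped, although all 8 B3AR-Tg animals were above the WT median. The log2 fold change was 0.24 with a 95% interval of −0.05 to 0.54 (edgeR adjusted p = 0.371), so an increase of up to 1.45-fold lies within the interval. It was 0.10 with scaling to myocyte markers, 0.046 with the other-cell covariate and −0.22 with the load covariate. Its longest stretch identical to an Adra1b transcript was 15 bases.

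The other adrenergic receptor genes of the alpha classes were close to the limit of detection, which was taken as 3 counts (0.201 to 0.487 CPM). Adra1d, the alpha-1D receptor gene, held 1 to 12 counts in WT libraries and 2 to 14 in B3AR-Tg libraries. The alpha-2 receptor genes, whose products couple to Gi, held fewer. Adra2a summed to 17 counts over the WT libraries and 34 over the B3AR-Tg libraries, Adra2b to 3 and 11, and Adra2c to 17 and 16. None of the 4 passed the low-count filter, so 0 of 4 were tested.

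Adrb1 encodes the beta-1 receptor, the main beta receptor of ventricular myocytes (ENSMUSG00000035283, chromosome 19, 56722199 to 56733113, plus strand). The lowest, median and highest animals were at 2.50, 3.22 and 5.49 CPM in WT and at 2.51, 3.24 and 5.09 CPM in B3AR-Tg. The ranges coincided almost entirely, and 4 of 8 B3AR-Tg animals lay above the WT median. The log2 fold change was 0.06 with a 95% interval of −0.33 to 0.46 (edgeR adjusted p = 0.899), an interval that spans 0.793-fold to 1.38-fold. Libraries held 17 to 52 counts of it, which limits what could be detected. The sign of the difference was not stable. It was negative when libraries were scaled to myocyte markers (−0.090), with the other-cell covariate (−0.21) or the load covariate (−0.26), and without B3AR-Tg replicate 6 (−0.032).

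Mouse Adrb3 is the mouse gene of the receptor type that names the line (ENSMUSG00000031489, chromosome 8, 27225776 to 27250616, minus strand). It was counted 12 times over all WT libraries and 14 times over all B3AR-Tg libraries. At least 1 count was present in 5 of 8 WT and 7 of 8 B3AR-Tg animals, and the highest library held 4. WT animals averaged 0.172 ± 0.169 CPM and B3AR-Tg animals 0.162 ± 0.0978 CPM (SD, n = 8 each), with overlapping groups (exact two-sided permutation p = 0.894). The ratio of the summed rates was 0.939 with an exact binomial 95% interval of 0.403 to 2.22, which covers counting error only. No higher level of mouse Adrb3 in the transgenic line was detectable at this depth. An increase of more than 2.22-fold in the summed rate lies outside the interval. The species of the transgene was not given, so it is not known whether its transcripts would be counted under this gene. These counts therefore do not show whether the transgene was expressed. The longest stretch shared by Adrb3 and Adrb1 transcripts was 30 bases, and by Adrb3 and Adgrb3 transcripts 15 bases.

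Grk5 encodes G protein-coupled receptor kinase 5, a membrane-associated kinase that is prominent in heart (ENSMUSG00000003228, chromosome 19, 60889749 to 61095968, plus strand). With 195 to 1088 counts per library it was the most counted of the 7 genes. The lowest, median and highest levels were 28.5, 41.5 and 64.7 CPM in WT and 39.9, 62.7 and 89.0 CPM in B3AR-Tg. The groups overlapped, with 7 of 8 B3AR-Tg animals above the WT median and 4 of 8 above every WT animal. WT animals averaged 44.3 ± 12.6 CPM and B3AR-Tg animals 62.6 ± 15.9 CPM (SD, n = 8 each). The log2 fold change was 0.50, SE 0.17, with a 95% interval of 0.15 to 0.85. The unadjusted p was 0.00787, rank 891 of the tested genes, and the edgeR adjusted p was 0.0966, so Grk5 did not pass. Without WT replicate 8, whose 64.7 CPM was the highest of its group, the log2 fold change was 0.59 and the adjusted p 0.0489. Over the other 15 animals left out in turn, and over 12 alternatives to the main model, the adjusted p stayed above 0.05, with a range of 0.0522 to 0.768. The log2 fold change was 0.25 with the other-cell covariate, 0.85 with the load covariate and 0.32 with scaling to myocyte markers.

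The other receptor kinases, Grk1, Grk2, Grk3, Grk4 and Grk6, were all tested and 0 of 5 were called. Grk2, the widely expressed kinase long studied in heart failure, averaged 24.8 ± 2.78 CPM in WT animals and 27.3 ± 3.69 CPM in B3AR-Tg animals, for a log2 fold change of 0.14 with a 95% interval of −0.06 to 0.33 (edgeR adjusted p = 0.454). It varied least of the kinases, with a coefficient of variation of 11.2% among WT animals against 28.5% for Grk5. Grk3 (0.14, interval −0.17 to 0.46), Grk4 (0.02, −0.34 to 0.38), Grk6 (−0.19, −0.53 to 0.16) and Grk1 (0.26, −0.42 to 0.94) had log2 fold changes whose 95% intervals included 0. Grk1, the kinase of rod photoreceptors, held 1 to 26 counts per library. The longest stretch that Grk5 shared with any of Grk2, Grk3, Grk4 and Grk6 was 20 bases.

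Arrb1 encodes beta-arrestin 1 (ENSMUSG00000018909, chromosome 7, 99535466 to 99606771, plus strand). The lowest, median and highest levels were 2.21, 3.27 and 6.19 CPM in WT and 2.38, 4.04 and 4.83 CPM in B3AR-Tg. The groups overlapped and the highest animal of all was a WT animal, replicate 8. The log2 fold change was 0.07 with a 95% interval of −0.36 to 0.51 (edgeR adjusted p = 0.891). It was −0.088 when libraries were scaled to myocyte markers, 0.55 with the other-cell covariate, 0.53 with the load covariate and 0.24 without WT replicate 8, none of which passed.

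Arrb2 encodes beta-arrestin 2 (ENSMUSG00000060216, chromosome 11, 70432635 to 70440828, plus strand). Libraries held 3 to 13 counts in WT and 7 to 16 in B3AR-Tg, so it was compared outside the test across genes. WT animals averaged 0.816 ± 0.255 CPM and B3AR-Tg animals 1.02 ± 0.298 CPM (SD, n = 8 each), and the difference of 0.201 CPM did not pass (exact two-sided permutation p = 0.171). The difference was 0.123 CPM without WT replicate 4, the animal with 3 counts, and 0.105 CPM with scaling to myocyte markers. The ratio of summed rates was 1.21 with an exact binomial 95% interval of 0.857 to 1.71, which covers counting error only and not the spread between animals. The longest stretch identical between Arrb1 and Arrb2 transcripts was 18 bases.

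Of the 8 other genes with an arrestin fold, 3 were tested and 0 were called. Arrdc3, an alpha-arrestin that has been linked to beta-adrenergic receptor traffic, averaged 112.5 ± 29.4 CPM in WT animals and 83.9 ± 23.4 CPM in B3AR-Tg animals, with 1 of 8 B3AR-Tg animals above the WT median (log2 fold change −0.42, 95% interval −0.76 to −0.08, edgeR adjusted p = 0.150). Arrdc4 had a log2 fold change of −0.17 (edgeR adjusted p = 0.781). Txnip, an alpha-arrestin that restrains glucose uptake, was at 327.1 ± 47.4 and 327.8 ± 74.5 CPM, and the 95% interval of its log2 fold change was −0.25 to 0.25. The untested genes summed to 53 and 78 counts over WT and B3AR-Tg libraries for Sag (visual arrestin), 24 and 9 for Arrdc1, 87 and 73 for Arrdc2 and 2 and 2 for Arrdc5, and Arr3 (cone arrestin) had 0 counts in every library.

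**Figure D3:**
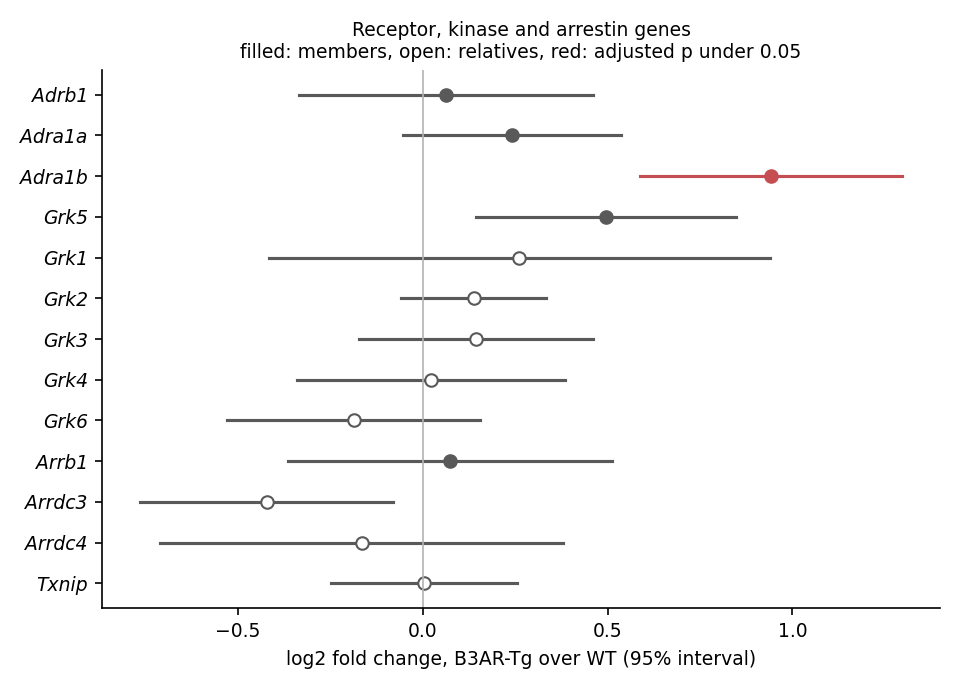
Log2 fold change of B3AR-Tg over WT with its 95% interval for the 5 tested members (filled) and the 8 tested relatives (open). The interval of Adra1b runs from 0.59 to 1.30, and Adra1b alone passed an adjusted p of 0.05 (red).

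Levels of different genes were compared per kilobase of the principal GENCODE M21 transcript. In WT the order from highest to lowest was Grk5 (6.74 ± 1.92 CPM per kilobase), Adra1a (3.42 ± 0.806), Adra1b (1.61 ± 0.365), Adrb1 (1.14 ± 0.332), Arrb1 (0.946 ± 0.323), Arrb2 (0.441 ± 0.138) and Adrb3 (0.0614 ± 0.0603). The order was the same in B3AR-Tg. Within an animal, Adra1a was above Adra1b in 8 of 8 WT animals and 7 of 8 B3AR-Tg animals. The levels of the alpha-1 pair were nearer in B3AR-Tg, at 4.04 ± 0.778 for Adra1a and 3.10 ± 0.884 for Adra1b. Adrb1 and Arrb1 did not differ beyond their spread, since Adrb1 was the higher of the pair in 5 of 8 animals of each genotype. Arrb1 has coding transcripts of up to 7135 bases, and with that length its WT level would be 0.493 CPM per kilobase, still above Arrb2. In B3AR-Tg it would be 0.525, below the 0.551 of Arrb2, so the order of the arrestins there depends on the transcript. Adra1b has coding transcripts of 1764 to 3331 bases and Adra1a of 2337 to 4282 bases. Only the principal ones were used for this pair, so its order can depend on the transcript too.

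Load markers differed strongly between the genotypes and were set beside the members. The load score, the mean log2 CPM of Nppa, Nppb, Myh7 and Acta1, was 9.91 ± 0.87 in WT and 7.74 ± 0.69 in B3AR-Tg, and all 4 genes were lower in B3AR-Tg (log2 fold changes −3.99, −1.13, −2.03 and −1.74). Nppb did not pass without WT replicate 4 or B3AR-Tg replicate 5, and Acta1 did not pass without WT replicate 2 or B3AR-Tg replicate 5. The WT load scores fell into separate stretches, 8.99 to 9.80 for 5 animals and 10.8 or more for 3, so no correlation with load is given for WT.

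**Figure D4:**
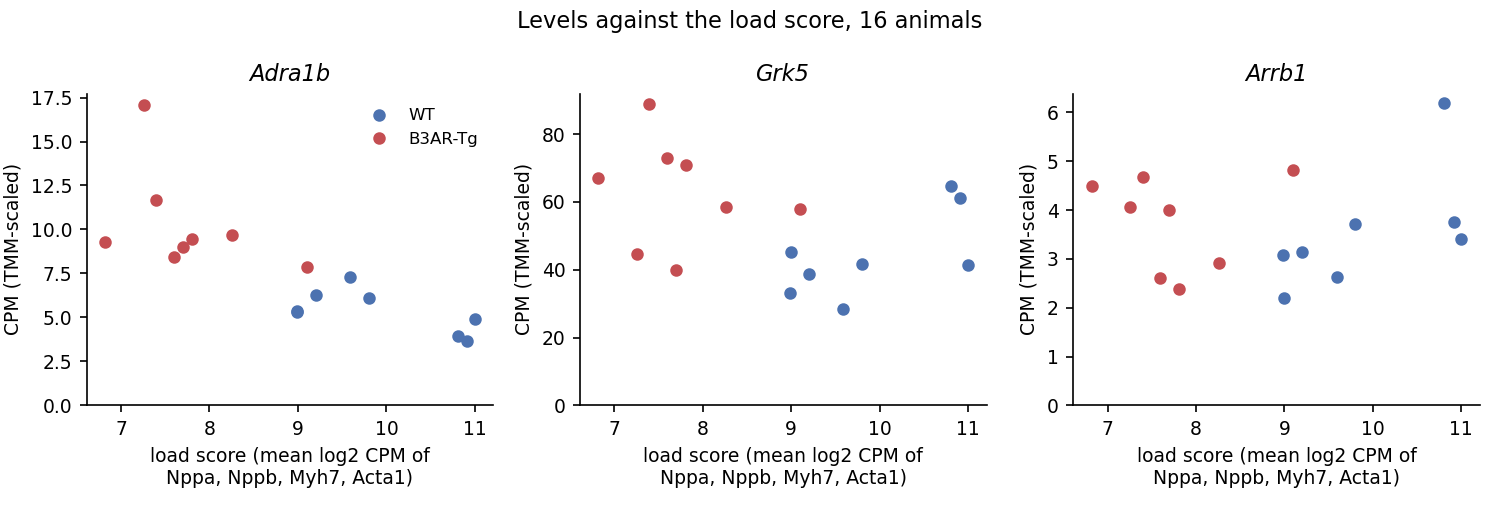
Level in CPM of Adra1b, Grk5 and Arrb1 against the load score (log2 CPM) in 8 WT (blue) and 8 B3AR-Tg animals (red). WT scores begin at 8.99 and B3AR-Tg scores end at 9.10, so the genotypes share only a narrow range of load.

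Within B3AR-Tg, Adra1b had a Pearson r of −0.48 with the load score (exact permutation p = 0.229) and a Spearman rho of −0.43 (exact permutation p = 0.299), and r was −0.61 without replicates 7 and 8, which lay farthest from the median score. For Grk5 in B3AR-Tg r was −0.12 (exact permutation p = 0.784) and rho −0.19 (exact permutation p = 0.665), with r = −0.01 without the same 2 animals. With the other-cell score, the mean log2 CPM of 15 fibroblast and endothelial markers, Adra1b had an r of −0.31 in WT (exact permutation p = 0.468; rho −0.50, exact permutation p = 0.216) and 0.24 in B3AR-Tg (exact permutation p = 0.542; rho −0.17, exact permutation p = 0.703). Leaving out the 2 animals farthest from the median score changed these r values to −0.52 and −0.88, so the relation in B3AR-Tg rested on replicates 2 and 4. Of the 20 relations computed between the 5 tested genes and the 2 scores, 0 passed after adjustment over the 20. An unadjusted exact permutation p under 0.05 was seen for 1 relation, Arrb1 with the load score in WT. It is among those not given because the WT load scores fell into separate stretches. For the 4 relations given the adjusted p was 0.572 or more.

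The genes whose levels ran most like those of each member were found by Pearson r of log2 CPM over the 16 animals, as a description. The points share libraries and depth, and the genotype difference adds to r. Taking the highest r among 10945 tested genes also raises it, and these r values were not tested. For Adra1b they were P2rx6 (r = 0.92), an ATP-gated channel gene, Tle3 (0.90), a transcriptional corepressor gene, and Tbc1d4 (0.90), which encodes a Rab GTPase-activating protein of insulin signalling. After each genotype's mean was subtracted, Tle3 (0.85), Tada2a (0.83) and Mgat3 (0.83) were nearest. Grk5 ran most like Tmem234 (0.83), 2510002D24Rik (0.80) and Tctn1 (0.80), and after subtraction most like Rtcb (0.86), Wdpcp (0.85) and Rcc2 (0.78), so 0 of these 3 genes were shared. Arrb1 ran most like Megf9 on both scales (0.88 and 0.88). Adra1a ran most like Bcl2l11 (0.85), Adamts7 (0.85) and Prdm10 (0.85), and Adrb1 most like Nme5 on both scales (0.75 and 0.75). The scales differ little for Arrb1 and Adrb1, whose log2 fold changes between genotypes were 0.07 and 0.06.

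The rest of the pathway was described with 129 further genes, of which 104 were tested. At an edgeR adjusted p under 0.05, 11 of the 104 were called (10.6%, against 4.91% of all tested genes), 8 higher and 3 lower in B3AR-Tg. The lists were chosen with earlier results of these data known. These shares, and those of single lists below, are therefore descriptions and not an independent result about the pathway. With scaling to myocyte markers 14 were called, 5 higher and 9 lower, and with library size only 13 were called, 11 higher and 2 lower. The median log2 fold change of the 104 was −0.0038. The count was 6 without WT replicate 1, WT replicate 4 or B3AR-Tg replicate 5, and 7 without WT replicate 8, B3AR-Tg replicate 1 or B3AR-Tg replicate 8. It was 0 with either the other-cell or the load covariate, but the log2 fold changes of the 11 genes moved differently. With the other-cell covariate Pde4b was at 1.09, Pde3a at 0.57, Slc22a3 at 0.99 and Plcd3 at −1.02, and with the load covariate they were at 0.43, 0.067, 0.28 and −0.58.

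Over all tested genes 2.03% were called higher and 2.88% lower in B3AR-Tg. On the side of Gs, cyclic AMP and their targets, 5 of 31 tested genes were higher and 0 lower. They included 3 genes of enzymes that break down cyclic AMP, Pde4b (log2 fold change 0.99, edgeR adjusted p = 0.00329), Pde3a (0.57, adjusted p = 0.0169) and Pde4a (0.60, adjusted p = 0.0409). The other 2 were Ryr2, the calcium release channel of the sarcoplasmic reticulum (0.46, adjusted p = 0.0359), and Cacna1c, the pore subunit of the L-type calcium channel (0.33, adjusted p = 0.0394). With scaling to myocyte markers 3 of the 5 did not pass, Pde4a (0.47, adjusted p = 0.0664), Ryr2 (0.32, adjusted p = 0.0781) and Cacna1c (0.18, adjusted p = 0.229). Ryr2 is itself 1 of the myocyte markers whose counts set that scaling. Of the Gi, nitric oxide and cyclic GMP genes 0 of 10 tested were called, and 1 of the 10 had a log2 fold change above 0. On the side of Gq, 1 of 28 tested genes was higher and 2 were lower. Rgs2, a brake on Gq signalling, rose from 12.6 ± 4.26 to 23.7 ± 9.29 CPM (0.92, adjusted p = 0.0211). Plcd3, a phospholipase C gene of the delta class, fell (−0.89, adjusted p = 0.0138). The listed genes of the beta class, Plcb1, Plcb3 and Plcb4, were not called. Rgs3 also fell (−0.54, adjusted p = 0.0477) but did not pass with library size only (−0.47, adjusted p = 0.100). Of the genes of receptor endocytosis and sorting 0 of 21 tested were called.

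Genes that make, take up or break down catecholamines held 3 calls among 6 tested, against 4.91% of all tested genes. This list too was chosen with earlier results of these data known. Ddc, which encodes the decarboxylase that forms dopamine, rose from 1.82 ± 0.436 to 4.34 ± 1.33 CPM with groups that did not overlap (log2 fold change 1.28, edgeR adjusted p = 0.00382). Slc22a3, a low-affinity monoamine transporter gene, rose from 2.61 ± 0.715 to 4.77 ± 1.63 CPM (0.88, adjusted p = 0.0278). Sult1a1, a sulfotransferase gene, fell from 10.9 ± 2.26 to 6.67 ± 1.47 CPM (−0.71, adjusted p = 0.0137). Over 16 fits that each left out 1 animal, Pde4b, Pde3a, Rgs2, Plcd3, Ddc and Sult1a1 passed in all 16. Slc22a3 did not pass without WT replicates 1, 4 or 8 or B3AR-Tg replicates 5 or 8 (adjusted p up to 0.0713). Pde4a passed only without WT replicates 3, 5 or 6 or B3AR-Tg replicates 3 or 6 (up to 0.0900 otherwise), Cacna1c only without WT replicates 2 or 3 or B3AR-Tg replicates 3 or 6 (up to 0.0834), and Ryr2 only without WT replicates 3, 6 or 7 or B3AR-Tg replicates 2, 3, 6 or 7 (up to 0.0837). Rgs3 passed only without WT replicate 7 or B3AR-Tg replicate 4 (up to 0.102).

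**Figure D5:**
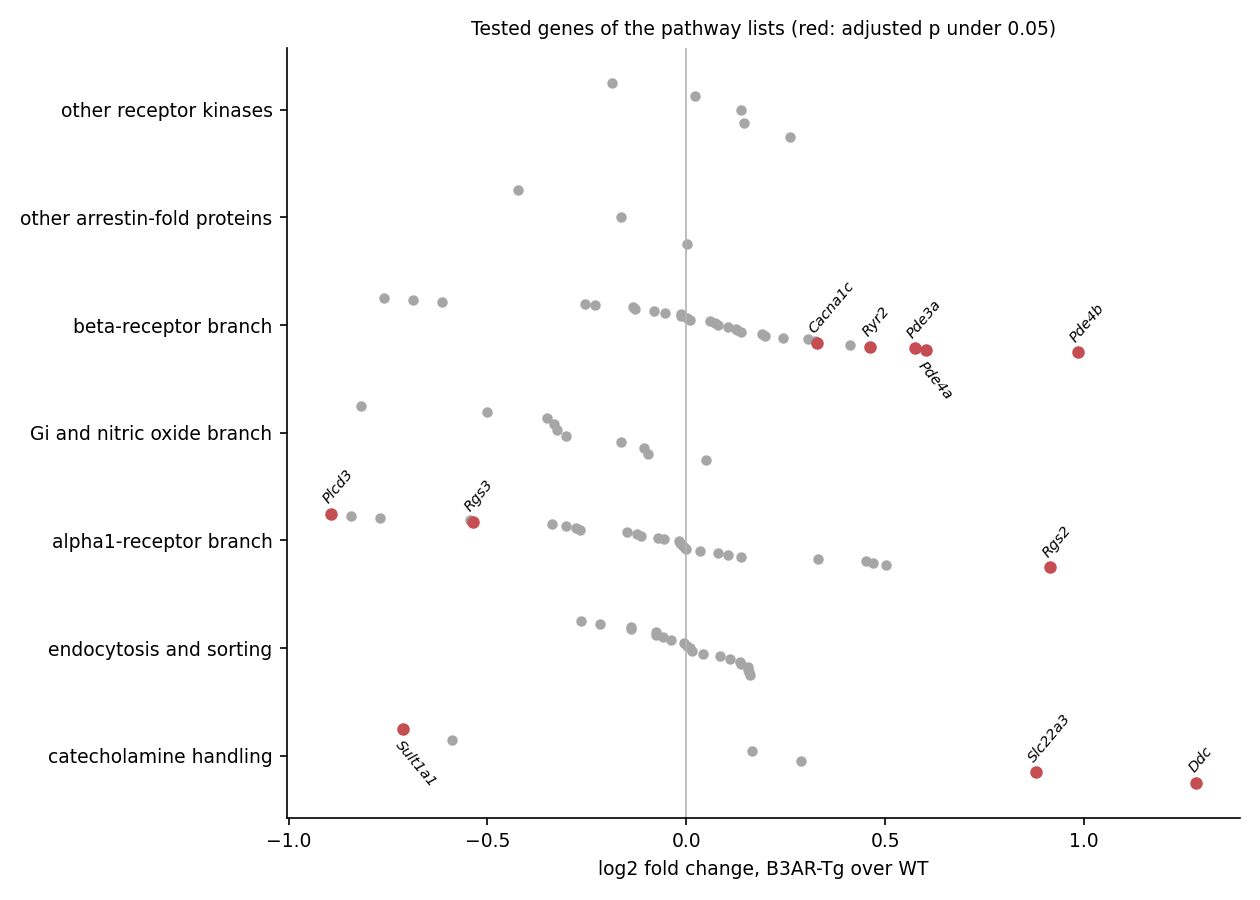
Log2 fold change of B3AR-Tg over WT for each tested gene of 7 pathway lists (1 point per gene, ordered by fold change within each list), with the 11 genes past an adjusted p of 0.05 in red and named. The 5 red genes of the beta-receptor branch lie to the right of 0, and the catecholamine genes lie on both sides.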

How the data were processed

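RNA of 16 animals was sequenced from both ends after ribosomal RNA depletion of 500 ng, with stranded total RNA libraries, per the labels' protocols. The authors deposited whole-number counts per gene with no normalization. Salmon and the build GRCm39 are named in the submitters' processing notes. The version, the annotation and whether estimates were rounded are not given in the sources used here, nor is the treatment of reads that match several genes.

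Genotypes were compared on these counts in edgeR 4.0.16 (R 4.3.3), by quasi-likelihood F test (filterByExpr with a minimum count of 10 and total of 15, TMM scaling, genotype only). P-values are two-sided and Benjamini-Hochberg adjusted over 10945 genes. They measure the spread between animals. Members below the filter and within-library ratios (0.5 added to each count) were tested by exact permutation. The smallest p this allows is 0.000155. Scores are means of log2 CPM (prior count 2).

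Members and lists were chosen with earlier results of these data known. Named genes were the members, listed pathway genes past the threshold, other receptor, kinase and arrestin genes, load markers, Adgrb3 and the 3 genes most like each member. Alternatives were scaling, filter, DESeq2 1.42.0, limma voom 3.58.1, covariates, a replicate block and leaving out each animal. The tests were also tested on simulated data. GENCODE M21 (GRCm38) gave positions and lengths for 136 of 136 genes looked for. A pathway gene and a marker gene were left out of the lists after the results were known and are not reported here.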

Additional observations from a re-analysis of the deposited data

Results flagged for a closer look

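In each group of 8 animals, for 25 values, the highest and lowest animals were checked for a gap to the nearest animal larger than Dixon's 95% critical value for 8 values, as a share of the group's range. For normal values, chance would give such a gap in about 1 in 20 groups, or 2.5 of the 50 groups searched, and 9 groups had a gap. Whether the values are normal was not tested, and the groups share animals. The 9 therefore cannot be judged against the 2.5.

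Among the members, Adra1b in B3AR-Tg replicate 4 was at 17.1 CPM, with the next animal at 11.7 CPM. This was the smallest library, and without it the log2 fold change of Adra1b was 0.81 (edgeR adjusted p = 0.00650). Adrb1 in WT replicate 5 was at 5.49 CPM, with the next at 3.66. Arrb1 in WT replicate 8 was at 6.19 CPM, with the next at 3.75. Arrb2 in WT replicate 4 was at 0.268 CPM (3 counts), with the next at 0.732.

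Among the other genes, Plcd3 in WT replicate 8 was at 9.04 CPM and Rgs2 in B3AR-Tg replicate 6 at 44.2 CPM. B3AR-Tg replicate 7 was the highest of its group for Nppa (120.3 CPM), Myh7 (1093 CPM) and Acta1 (1855 CPM).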

How the results depend on the processing

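Adra1b kept its direction in 12 of 12 alternatives to the main model and its call in 10, but had log2 fold changes of 1.02 with the other-cell covariate and 0.37 with the load covariate, neither of which passed. The cause was not tested. Both scores differ with genotype. Adrb1 changed sign with myocyte-marker scaling (−0.090), the other-cell covariate (−0.21) and the load covariate (−0.26), Adra1a with the load covariate (−0.22) and Arrb1 with myocyte-marker scaling (−0.088), none of them called. Under myocyte-marker scaling the median of all genes was −0.14. With the load covariate, signs also changed for Nppa (0.10), Myh7 (0.38) and Acta1 (0.0031). The Adrb3 difference was 0.0065 CPM when scaled by library size only, against −0.0093 CPM.

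Genes called numbered 940 with myocyte-marker scaling (88 higher, 852 lower), 230 with the replicate block, 3 with the other-cell covariate and 7 with the load covariate, against 537 (222 higher, 315 lower). They were 511 (346 higher, 165 lower) with library size only. Pathway genes called were 4 with the replicate block and 0 with each of these covariates, against 11. The replicate numbers belong to different animals, and same-numbered deviations had correlations of −0.22 to 0.09, so they share only a number. With the block Adra1b had a log2 fold change of 0.93 (edgeR adjusted p = 0.0360).

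Leaving out each animal gave ranges of −0.032 to 0.19 for Adrb1, 0.41 to 0.59 for Grk5, −0.38 to 0.0097 for the Arrb1 to Arrb2 ratio, −0.0338 to 0.0223 CPM for Adrb3, 274 to 669 genes called and 6 to 14 pathway genes called. Arrb2, below the filter, had a log2 fold change of 0.32 with no filter, and its alternatives were added after the data had been seen.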
